A study of Mus musculus with 6 samples.

Results

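Small leucine-rich proteoglycans (SLRPs) are secreted proteins of the extracellular matrix (ECM), and 9 of their genes, listed by name, were followed among the 52636 genes of the count table: Bgn (biglycan), Dcn (decorin), Lum (lumican), Fmod (fibromodulin), Ogn (osteoglycin), Prelp, Aspn (asporin), Omd (osteomodulin) and Podn (podocan). RNA of whole thoracic aorta from mice 12 weeks of age was sequenced in 6 libraries, and the labels do not say whether a library holds 1 mouse or several. Table columns carry codes, and their match to WT and KO libraries was inferred. The 4 WT libraries came from untreated C57BL/6J mice. The 2 KO libraries came from Tgfbr1/2iSMCKO mice, also given as C57BL/6J, which carry floxed alleles of Tgfbr1 and Tgfbr2 (f/f), Myh11-CreERT2 and the mT/mG reporter, and which received i.p. tamoxifen at 2 mg/d on 5 days from 11 weeks of age. Cre is driven by the promoter of the smooth muscle myosin gene Myh11, so that deletion is aimed at smooth muscle cells (SMCs) and not at adventitial fibroblasts or endothelium. The transgene sits on the Y chromosome, so only males carry it. The paper states that the aortas it studied came from males, and the labels do not give sex. WT mice lacked the floxed alleles, the Cre, the reporter and tamoxifen, so that effects of these cannot be told apart from receptor deletion. The comparison asks how SLRP transcripts of the aortic wall stood 1 week after loss of TGF-β receptors in SMCs.

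SLRPs have a core of leucine-rich repeats that binds collagen, and most carry chondroitin, dermatan or keratan sulfate chains. They are known for setting the width and spacing of collagen fibrils, and biglycan, decorin, fibromodulin and asporin also bind TGF-β. In the arterial wall biglycan is made by SMCs and other cells, whereas decorin and lumican are typical products of adventitial fibroblasts. Biglycan, decorin and asporin form class I, fibromodulin, lumican, Prelp and osteomodulin class II, osteoglycin belongs to class III, and podocan to class V.

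In GENCODE M21 on GRCm38, 7 of the 9 genes lie in 3 clusters with other SLRP genes. Chromosome 10 holds Dcn (ENSMUSG00000019929.16, 97479609 to 97518143) and, 47.0 kb after it, Lum (ENSMUSG00000036446.5, 97565128 to 97572703), followed by Kera and Epyc. Chromosome 13 holds Ecm2, then Aspn (ENSMUSG00000021388.14, 49544443 to 49567565), Omd (ENSMUSG00000048368.9, 49582462 to 49592822) and Ogn (ENSMUSG00000021390.6, 49608046 to 49624501). These last 3 genes lie inside Cenpp, which runs on the opposite strand and shares 7 exon bases with Aspn and none with the others. Chromosome 1 holds Optc, Prelp (ENSMUSG00000041577.5, 133910304 to 133921414, reverse strand), 2.31 kb apart, and Fmod (ENSMUSG00000041559.7, 134037254 to 134048277). Prelp shares 350 exon bases with the antisense gene Gm15851, so its reads may be shared, since strand use in the counting is not stated. Bgn (ENSMUSG00000031375.17, X, 73483602 to 73495933) and Podn (ENSMUSG00000028600.15, chromosome 4, 108014791 to 108096445, reverse strand) stand apart from other SLRP genes.

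RefSeq promoter windows on GRCm38.p6 were matched for 7 of the 9 genes, not for Dcn or Lum. The 250 bases before the start site are printed for Bgn, the gene that fell, for Ogn, which rose, and for Aspn, a neighbour of Ogn that did not pass the test. Capitals mark matches on either strand of the box bound by the TATA-binding protein, searched as TATAAA, and of the box bound by Sp1, searched as GGGCGG. The windows are chrX:73483351-73483600, chr13:49607765-49608014 and chr13:49544193-49544442, all on the forward strand.
Bgn: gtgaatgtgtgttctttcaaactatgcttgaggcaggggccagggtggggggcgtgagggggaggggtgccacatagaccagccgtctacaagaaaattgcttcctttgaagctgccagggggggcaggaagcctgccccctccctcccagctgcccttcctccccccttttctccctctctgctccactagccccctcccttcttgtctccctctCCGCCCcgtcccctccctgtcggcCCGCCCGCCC
Ogn: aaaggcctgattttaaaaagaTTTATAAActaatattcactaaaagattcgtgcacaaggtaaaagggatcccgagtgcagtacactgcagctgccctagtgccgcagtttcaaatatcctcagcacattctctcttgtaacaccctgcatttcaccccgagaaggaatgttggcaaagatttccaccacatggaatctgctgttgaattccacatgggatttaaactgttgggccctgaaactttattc
Aspn: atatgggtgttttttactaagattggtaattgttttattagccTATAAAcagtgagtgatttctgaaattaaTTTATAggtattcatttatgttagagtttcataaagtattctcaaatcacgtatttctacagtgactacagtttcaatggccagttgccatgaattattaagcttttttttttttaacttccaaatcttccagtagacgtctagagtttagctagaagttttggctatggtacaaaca
The Bgn window held 3 matches of GGGCGG, all on the reverse strand, of which the last 2 overlap each other, starting 34, 10 and 6 bases before the start site. The Ogn window held 2 matches of TATAAA, which overlap on opposite strands 229 and 227 bases before the start, and the Aspn window held 2 matches, 207 and 178 bases before it. Of 32851 windows of this length, 32.7% held GGGCGG and 12.4% held TATAAA. GC content was 64.4% in the Bgn window, 42.0% in the Ogn window and 30.0% in the Aspn window, against a median of 52.4% over all windows. CAGAC, the core of the element bound by Smad proteins, was searched on both strands too. It had 2 matches in the Fmod window, 1 in the Prelp window and none in those of Bgn, Ogn, Aspn, Omd or Podn, and 42.2% of all windows held it. Such matches describe the letters of these windows only.

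Libraries held between 19650983 and 28860598 counts. Mitochondrial genes took 2.62% to 4.44% of the counts of the WT libraries, 3.38% of KO-1 and 11.7% of KO-2. Whole-gene counts of Tgfbr1 and Tgfbr2, which include exons outside the deleted parts and RNA of cells without Cre, do not check the KO label. The normalised count (counts divided by DESeq2 size factors) of Tgfbr1 was 3858, 3999, 4763 and 5420 in WT and 5780 and 4568 in KO, and that of Tgfbr2 was 5327, 5643, 6948 and 7042 in WT and 5784 and 5937 in KO. The labelled tissue was matched by smooth muscle markers, whose 8 genes summed to between 915526 and 1075154 normalised counts in WT and to 875786 and 1031997 in KO. Both KO libraries stood apart in RNA of other tissues. Cardiac muscle markers (7 genes) summed to between 2946 and 4172 in WT, 27159 in KO-1 and 4087 in KO-2. Brown adipocyte markers (5 genes) summed to between 372 and 574 in WT, 714 in KO-1 and 11424 in KO-2, and red blood cell markers (5 genes) reached 5990 at most in WT, 11076 in KO-1 and 61684 in KO-2. Of 6 mesothelial markers, 6 were higher in KO by DESeq2. How far such cells contribute to the SLRP results was not tested.

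In WT aorta the SLRP genes spanned a wide range of levels, led by Bgn. Per kb of the principal transcript, the normalised count of Bgn was 72425 ± 6281 (SD, n = 4), rank 12 of the 24129 genes with counts in WT. Dcn followed at 13109 ± 763 (rank 70). Before division by length its mean normalised count in WT, 23046, was below that of Prelp, 28613. Ogn, at 8841 ± 1244 (rank 119), and Prelp, at 7915 ± 711 (rank 144), overlapped in range, although Ogn was above Prelp in 4 of 4 libraries. Fmod (1399 ± 193) and Lum (1071 ± 152) overlapped in the same way. Aspn stood at 686 ± 162, and the lowest genes, Podn (231 ± 105) and Omd (218 ± 51.3), did not differ beyond their spread. In the KO libraries Ogn, at 16570 and 16373 per kb, came close to Dcn, at 17196 and 17039, and stood above Prelp, at 7497 and 8832.

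Among the 9 genes, Lum and Ogn rose and Bgn fell in KO aortas, with DESeq2 adjusted p under 0.05 over all genes, and no change passed 2-fold. Over all 17070 genes with an adjusted p, 10.4% passed the same threshold, 5.71% higher and 4.69% lower, and 5.64% also had a fold above 2. The median log2 fold change of the 9 genes was 0.41, against 0.01 for all genes tested. Both KO libraries lay above every WT library for 3 of the 9 (Dcn, Lum and Ogn; 17.9% of all genes) and below every one for 1 (Bgn; 16.4% of all genes). In whole tissue, fewer cells of a type and less RNA per cell cannot be told apart.

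**Figure D1:**
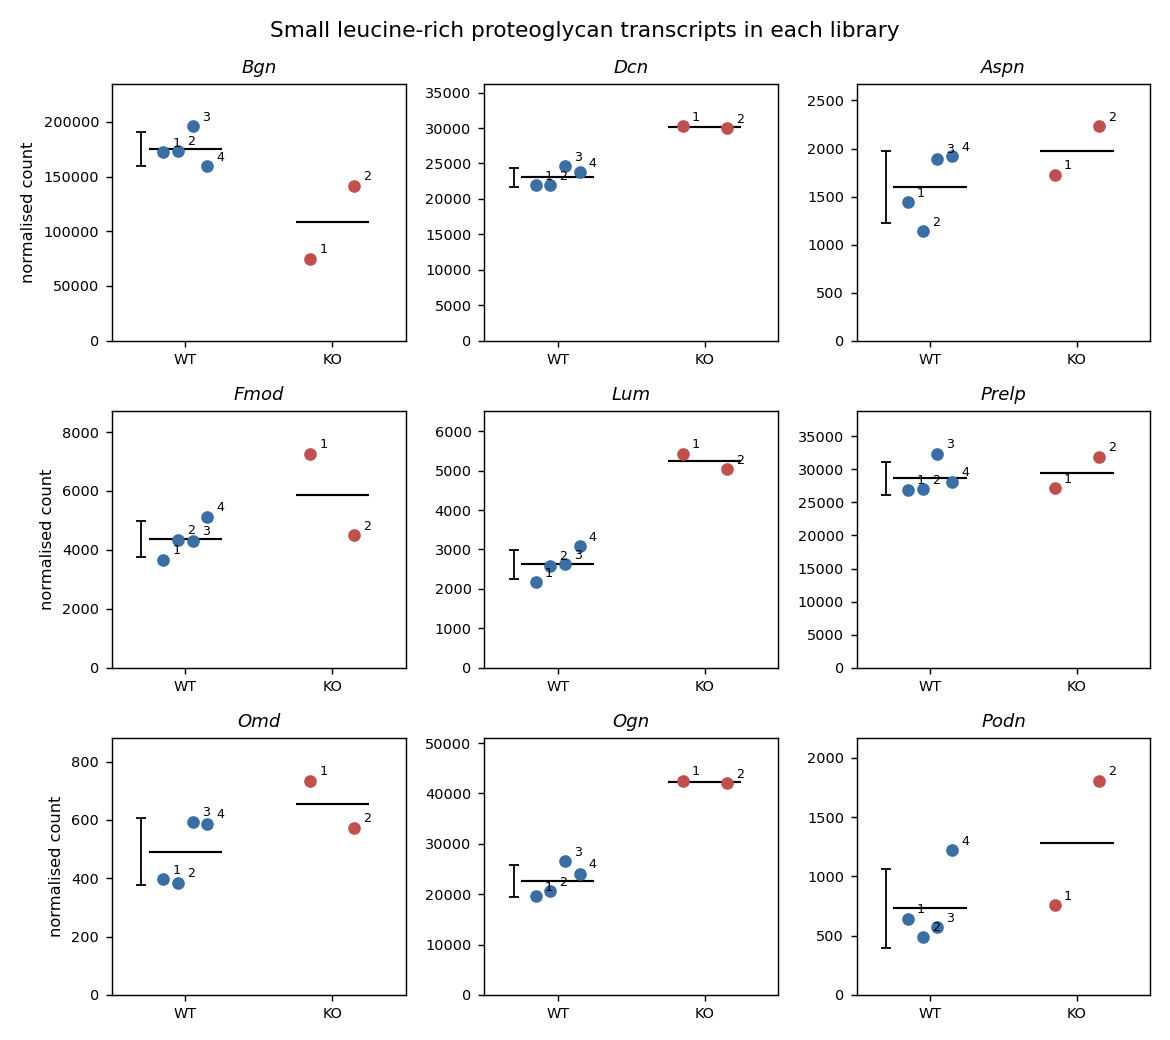
Normalised counts (linear axis from 0) of the 9 SLRP genes in the 4 WT (blue) and 2 KO (red) libraries, with the replicate number beside each point, the group mean as a line and the WT SD as a bar to the left. Lum, Ogn and Dcn sit above every WT library in both KO libraries, Bgn sits below, and the other genes overlap.

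Lum encodes lumican, a keratan sulfate SLRP that limits the width of collagen fibrils. Its normalised count was 2176, 2591, 2632 and 3088 in the WT libraries and 5433 and 5035 in the KO libraries. Both KO libraries were far above the highest WT library and close to each other. The log2 fold change was 0.997 (SE 0.185, DESeq2 adjusted p = 4.7e-06).

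Ogn encodes osteoglycin, also called mimecan, which is abundant in the vascular wall. Its normalised count was 19558, 20618, 26510 and 24059 in WT and 42520 and 42014 in KO. The KO libraries differed from each other by less than the WT libraries did, and both exceeded all of them. The log2 fold change was 0.90 (SE 0.18, DESeq2 adjusted p = 2.4e-05). Lum and Ogn lie in different clusters, and edgeR's quasi-likelihood test also called both, with adjusted p of 0.013 for Lum and 0.019 for Ogn, where 6.18% of 16114 genes passed.

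Fibroblast markers were read beside both genes. The 8 marker genes summed to between 30943 and 37478 normalised counts in WT, 45795 in KO-1 and 35230 in KO-2, with 2 of the 8 higher (Dpt and Cd34), none lower and a median log2 fold change of 0.27. The marker sum was above the WT range in KO-1 and within it in KO-2, and the part of fibroblasts in the Lum and Ogn results was not tested. With size factors taken from the fibroblast markers, an alternative added after seeing the data, the log2 fold change of Lum was 0.78 (DESeq2 adjusted p = 0.014) and that of Ogn was 0.68 (adjusted p = 0.057), so that the call for Ogn was lost.

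Bgn encodes biglycan, a proteoglycan of the media with chondroitin or dermatan sulfate chains. Its normalised count was 172048, 173659, 195833 and 159244 in WT and 74905 and 141525 in KO. KO-1 was far below the WT libraries, whereas KO-2 lay nearer to the lowest of them. The log2 fold change was -0.70 (SE 0.24, DESeq2 adjusted p = 0.038), and it was -0.31 (adjusted p = 0.24) without KO-1 and -1.21 (adjusted p = 4.8e-10) without KO-2. The call was also lost without any 1 of the WT libraries, with adjusted p from 0.066 to 0.13, and with edgeR (adjusted p = 0.13). None of the 8 smooth muscle markers passed the DESeq2 test (4 had an unadjusted p under 0.05), and their median log2 fold change was 0.01. Their sum was 875786 in KO-1, the library with the lowest Bgn count, against 915526 at least in WT. In KO-2 it was within the WT range. With size factors taken from these markers, an alternative added after seeing the data, the log2 fold change of Bgn was -0.69 (DESeq2 adjusted p = 0.025). The part of smooth muscle cells in the Bgn result was not tested.

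Dcn encodes decorin, the class I relative of biglycan. Its normalised count was 21955, 21898, 24602 and 23730 in WT and 30230 and 29955 in KO. The groups did not overlap, but the log2 fold change of 0.38 (SE 0.15, DESeq2 adjusted p = 0.068) did not pass the threshold. Of the alternatives that kept both KO libraries it passed in 2, without WT-3 (DESeq2 adjusted p = 0.040) and on genes with at least 10 counts in total (adjusted p = 0.021). Over all 18 alternatives the log2 fold change ran from 0.17 to 0.46. The lowest value came with size factors from the fibroblast markers (DESeq2 adjusted p = 0.73), the highest with the replicate block (adjusted p = 0.45). With the GC trend taken out it was 0.25 (DESeq2 adjusted p = 0.26). Within each library, where scaling plays no part, the ratio of Bgn to Dcn counts was 7.84, 7.93, 7.96 and 6.71 in WT and 2.48 and 4.72 in KO. The mean log2 ratio was lower in KO by 1.15 on the log2 scale, with both KO libraries below all WT libraries, and the two-sided exact permutation p was 0.13, the smallest that 4 against 2 libraries allow. The difference was -0.68 without KO-1 and -1.62 without KO-2.

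The 5 remaining genes did not pass the test. Fmod, whose protein binds collagen and steers its cross-linking, was split between the KO libraries: its normalised count was 3660, 4353, 4313 and 5133 in WT, 7269 in KO-1 and 4493 in KO-2. Its log2 fold change was 0.43 (SE 0.23, DESeq2 adjusted p = 0.25), and it was 0.043 without KO-1 and 0.75 without KO-2. Fmod passed in no alternative that kept both KO libraries. Podn, known to restrain SMC growth, was split the other way, at 643, 492, 569 and 1223 in WT, 754 in KO-1 and 1807 in KO-2. Its log2 fold change was 0.81 (SE 0.38, DESeq2 adjusted p = 0.18), and its WT coefficient of variation, 45.5%, was the highest of the 9 genes. It rested on KO-2: the log2 fold change was 0.054 without that library and 1.31 without KO-1. Without WT-4 it was 1.17 (adjusted p = 0.017).

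Prelp, which anchors basement membranes to connective tissue, had normalised counts of 26947, 26981, 32376 and 28147 in WT and of 27103 and 31929 in KO, within the WT range. Its log2 fold change was 0.04, with a 95% interval from -0.28 to 0.37 (DESeq2 adjusted p = 0.92). Aspn, whose protein binds TGF-β and collagen, ranged from 1139 to 1917 in WT and stood at 1729 and 2230 in KO, a log2 fold change of 0.31 (SE 0.25, DESeq2 adjusted p = 0.51), which was 0.12 without KO-2, 0.17 without WT-2 and 0.48 without KO-1. Omd, a keratan sulfate SLRP known from bone, ranged from 385 to 594 in WT and stood at 735 and 573 in KO, a log2 fold change of 0.41 (SE 0.26, DESeq2 adjusted p = 0.36), which was 0.22 without KO-1 and 0.59 without KO-2.

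**Figure D2:**
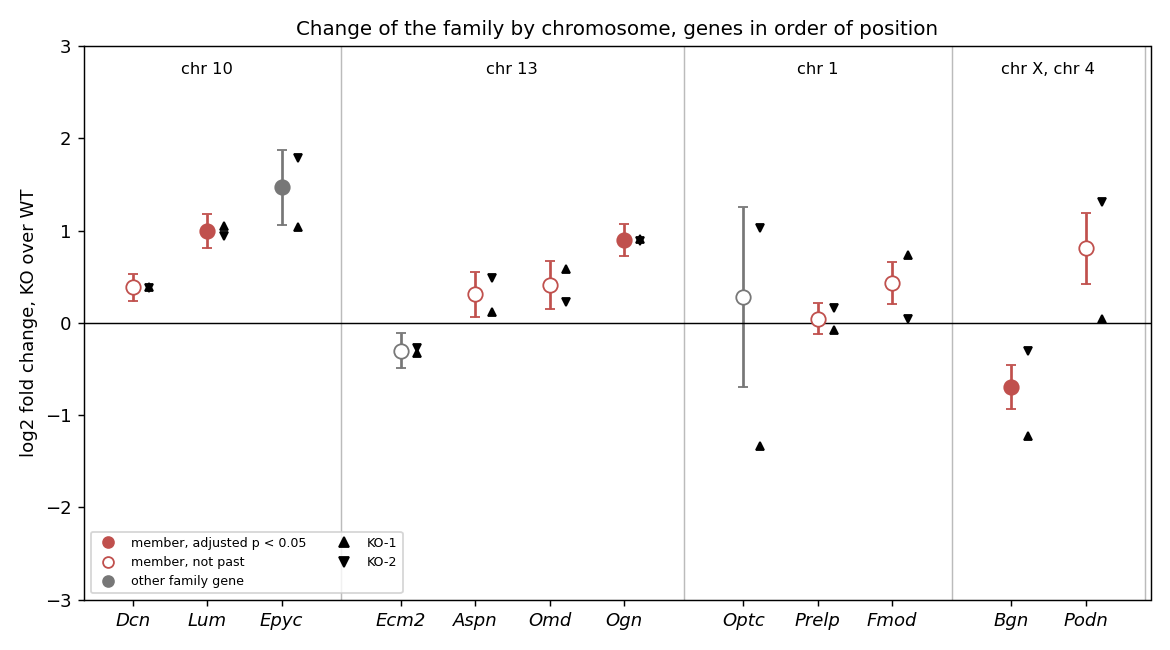
Log2 fold change of KO over WT (circles, with DESeq2 SE) for SLRP genes in order of position, in red for the 9 genes and in grey for others, filled where adjusted p was under 0.05, with each KO library over the WT mean as small triangles. On chromosome 13 Ogn is at 0.90 while Ecm2 is at -0.30. The triangles of Bgn, Epyc, Fmod and Podn lie apart, and those of Optc most widely (-1.34 in KO-1 and 1.02 in KO-2).

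On chromosomes 10 and 13 some genes of a cluster passed the test and others did not, and on chromosome 1 none of Optc, Prelp and Fmod passed. On chromosome 13, Ecm2, an ECM protein with leucine-rich repeats, stood at -0.30 on the log2 fold scale (adjusted p = 0.36 by DESeq2), while Ogn rose. On chromosome 10, Epyc, a class III SLRP of cartilage, rose from between 38.4 and 61.6 normalised counts in WT to 97.9 and 165 in KO, a log2 fold change of 1.47 (SE 0.41, DESeq2 adjusted p = 0.0058), and Kera was at 0 in all libraries except WT-4. On chromosome 1, Optc, known from the vitreous of the eye, varied from 422 to 2110 among WT libraries and was at 502 in KO-1 and 2576 in KO-2 (DESeq2 adjusted p = 0.91). The differences between cluster neighbours were not tested.

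Of 10 other SLRP genes and relatives, 7 had an adjusted p, of which 2 were higher, Epyc and Chad, and none lower. Chad encodes chondroadherin, a leucine-rich protein of cartilage that binds collagen and integrins. It was at 19.8, 83.5, 34.0 and 71.0 normalised counts in WT and at 486 and 1712 in KO, a log2 fold change of 4.40 (SE 0.83, DESeq2 adjusted p = 7.3e-06). Among the 9 cartilage markers 7 had an adjusted p, of which 1 was higher (Col11a1, at most 45.5 normalised counts in any library) and 1 lower (Acan). The median log2 fold change of those 7 was 0.94. The 9 summed to between 2018 and 2755 normalised counts in WT and to 793 and 1084 in KO, a sum led by Acan, and without Acan the other 8 summed to between 327 and 501 in WT and to 442 in KO-1 and 724 in KO-2. The part of cartilage cells in the Chad result was not tested. Matn1 was at 0 in all 6 libraries and Col2a1 at 35.7 or less. Chadl (log2 fold change -1.08, adjusted p = 0.11), Tsku (-0.18, adjusted p = 0.83) and Nyx (0.34, adjusted p = 0.85) did not pass the DESeq2 test, and Podnl1 and Nepn were at 0 in most libraries.

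**Figure D3:**
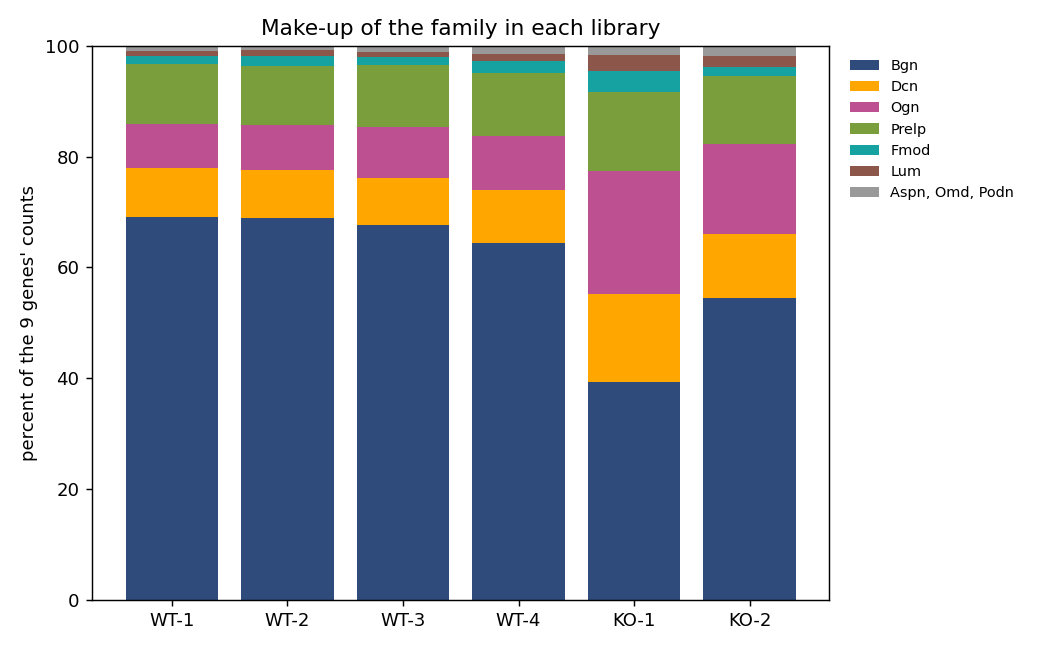
Share of the 9 genes' counts (percent, axis from 0 to 100) taken by each gene in each library, with Aspn, Omd and Podn combined. Bgn takes 64.4% to 69.1% in WT, 39.3% in KO-1 and 54.5% in KO-2, and Ogn takes a larger share in both KO libraries.

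Bgn took a smaller share of the counts of the family in both KO libraries than in any WT library. Since shares add up to the whole, a lower Bgn count raises every other share, that of Prelp included, which was between 10.7% and 11.4% in WT and 14.2% and 12.3% in KO. Bgn took 69.1%, 68.9%, 67.7% and 64.4% of the counts of the 9 genes in WT and 39.3% and 54.5% in KO. Ogn took between 7.86% and 9.74% in WT and 22.3% and 16.2% in KO, and Lum between 0.874% and 1.25% in WT and 2.85% and 1.94% in KO. If the estimated counts are taken as independent reads, counting error alone gave 95% Wilson intervals no wider than 0.212 percentage points above or below each share. The shares of Bgn in the WT libraries spread more widely than this. The 9 genes summed to between 247129 and 289325 normalised counts in WT and to 190677 and 259559 in KO. Without Bgn, the only member with a negative log2 fold change, the sum was between 76778 and 93492 in WT and 115772 and 118034 in KO. Both KO sums were above every WT library. Of the genes in that sum, only Dcn, Lum and Ogn were each above every WT library, and the others overlapped.

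Each gene was compared with the 11447 genes of a mean normalised count of at least 100 by the root mean square (RMS) difference of log2 profiles over the 6 libraries, each centred on its mean. The profiles nearest to Bgn were those of Kcns3 (0.091), Sod3 (0.099), the extracellular superoxide dismutase, and Igfbp7 (0.115). Nearest to Lum were Stim1 (0.051), Pdzd2 (0.063) and Lmo7 (0.077), and nearest to Ogn were Serpinb9 (0.054), Cdkl3 (0.072) and Enc1 (0.072). Lum and Ogn were 0.133 apart, and Bgn and Dcn 0.611. For Fmod the nearest were Lama2, Erlin1 and Pdgfra, a fibroblast receptor, and for Dcn Capn5, Ddx21 and Daam1. For Prelp they were Nsfl1c, Fkbp7 and Ppt1, for Aspn Tnfsf13b, Dclre1b and Tyw3, for Omd Pgr, Cbfb and Osbpl8, and for Podn, at 0.230 and more, Cxxc4, H2-Q7 and Immt.

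Enzymes that build the sulfated chains of SLRPs included several that fell. Of 27 tested genes of chondroitin and dermatan sulfate synthesis, 5 were lower and 1 higher by DESeq2, with a median log2 fold change of -0.02 (-0.15 without KO-1). Chpf, a subunit of the chondroitin polymerase, was at 2649, 1975, 2096 and 1245 normalised counts in WT and at 814 and 632 in KO, a log2 fold change of -1.46 (SE 0.27, DESeq2 adjusted p = 6.8e-06). Chsy3, another polymerase, had a log2 fold change of -1.03, and Chst3, a 6-O-sulfotransferase, of -0.96. Xylt2, which adds the first sugar to the core protein, had a log2 fold change of -0.83, Slc35d1, a transporter of nucleotide sugars, of -0.62, and Pxylp1, a phosphatase of the linker, rose by 0.67. Of 9 tested genes of keratan sulfate synthesis and tyrosine sulfation, Chst1, the keratan sulfotransferase, rose (log2 fold change 1.45) and B3gnt2 fell (-0.76).

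**Figure D4:**
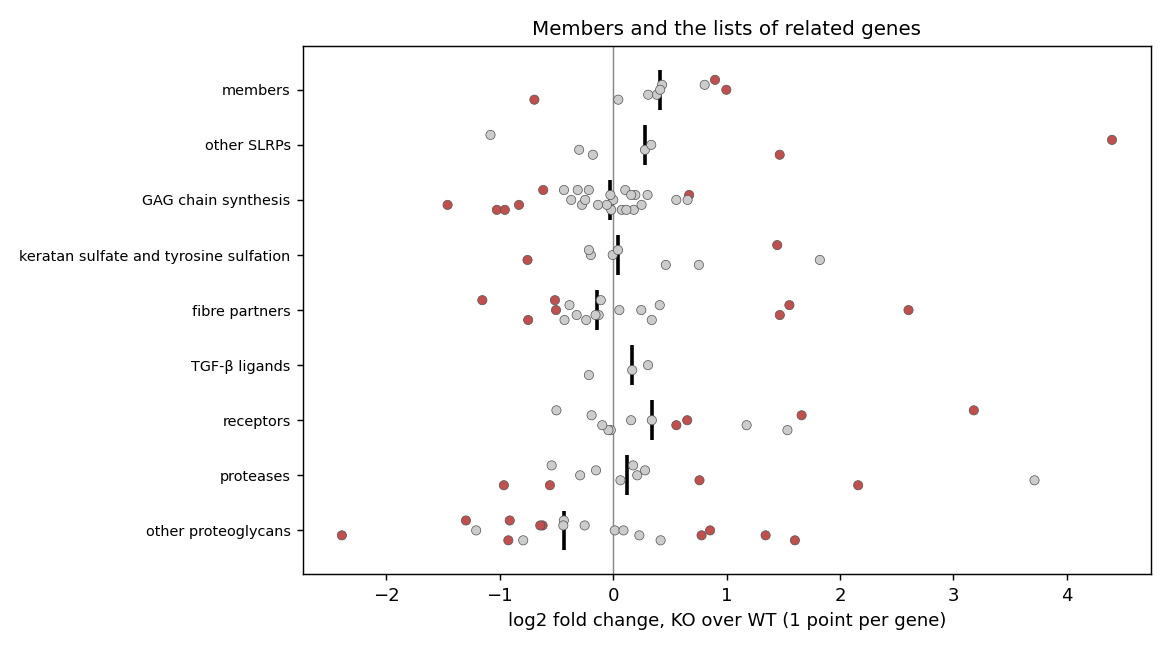
Log2 fold change of KO over WT (1 point per gene, red where DESeq2 adjusted p was under 0.05) for the 9 genes and the lists of related genes, with the list median as a black line. The medians run from -0.44 for other proteoglycans to 0.41 for the 9 genes.

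Transcripts of collagens I and III, the main fibrils that SLRPs bind, did not pass the test: by DESeq2, the log2 fold change was 0.34 for Col1a1 (adjusted p = 0.27), -0.13 for Col1a2 (adjusted p = 0.70) and 0.25 for Col3a1 (adjusted p = 0.29). Of 18 fibre partners, 3 were higher, Thbs1 (2.60), Col12a1 (1.55) and Ccn4 (1.47), and 4 were lower, Tnxb (-1.15), Fn1 (-0.75), Col5a2 (-0.51) and Col6a3 (-0.50). Fibronectin (Fn1) and tenascin-X (Tnxb) are matrix glycoproteins, and collagen V sets fibril width. None of the 3 TGF-β ligands that SLRPs can bind passed the DESeq2 test, and 0 had an unadjusted p under 0.05, with log2 fold changes from -0.21 for Tgfb1 to 0.31 for Tgfb3.

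Of 13 genes of receptors and signalling proteins linked to soluble SLRPs, 4 were higher and none lower. Kdr, the VEGF receptor of endothelium, had a log2 fold change of 3.18, Met of 1.66, Egfr of 0.65 and Cd44 of 0.56. Among 7 endothelial markers, 3 were higher and none lower. Their sum was between 11988 and 22151 normalised counts in WT, 31616 in KO-1 and 30143 in KO-2. Kdr itself was between 59.3 and 86.2 in WT, 350 in KO-1 and 896 in KO-2. The part of endothelial cells in the Kdr result was not tested. Of 12 proteases tested, Adamts4 (2.16) and Adamts5 (0.76), which cut proteoglycans, were higher, and Bmp1 (-0.56), which trims the propeptide of biglycan and procollagens, and Mmp3 (-0.96) were lower.

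Other proteoglycans of the wall moved in both directions. Of 19 tested, 6 were lower by DESeq2, among them Acan (aggrecan, log2 fold change -2.39) and Cspg4 (-1.30), with Vcan (versican) at -0.92, Agrn at -0.91, Sdc4 at -0.64 and Hspg2 (perlecan) at -0.62. The 4 that were higher were Prg4 (1.60), Srgn (1.34), Sdc3 (0.85) and Gpc3 (0.78). The median of the 19 was -0.44, against 0.41 for the 9 SLRP genes and 0.01 for all genes tested, and it was -0.27 without KO-1 and -0.23 without KO-2. The median of the 9 SLRP genes was not followed through the alternatives. Omd, the gene at that median, was at 0.17 with size factors from the fibroblast markers and at 0.46 with those from the smooth muscle markers. Srgn is the proteoglycan of blood cell granules, and macrophage markers were higher in 6 of 7 genes, none lower, with a sum of between 8288 and 10083 normalised counts in WT and of 14235 and 16456 in KO; the part of this in the result was not tested.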

How the data were processed

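RNA of whole thoracic aorta was analysed in 4 WT and 2 KO libraries. The authors mapped reads with HISAT2 to GRCm38 (mm10) and estimated expression with StringTie. The authors deposited estimated counts for each gene, as whole numbers without scaling for depth. How coverage was turned into counts, and whether strand was used, is not given in the sources used here. The columns of the table carry codes, and their match to libraries was inferred from these codes: columns numbered up to 4 under 1 code were assigned to WT, and those under the second code to KO. Nothing in the labels says how replicates were collected or sequenced, so p-values measure the spread between these libraries only.

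DESeq2 1.42.0 in R 4.3.3 compared KO with WT over the whole table (Wald test, group as the only term). Calls used a Benjamini-Hochberg adjusted p under 0.05, without the further 2-fold change that the study required. edgeR 4.0.16, TMM factors, total counts, low-count filters, GC and exon length corrections, a replicate block and leaving out each library were alternatives. A gene with at most 3 counts is at the floor. The members and lists were chosen with earlier results of these data known. Genes were named by a rule: all members and related SLRP genes, Tgfbr1, Tgfbr2, the main fibrillar collagens, genes of each list past a 2-fold change at adjusted p under 0.05 (otherwise up to 3 with the smallest adjusted p), and the 3 nearest profiles of each member. Other genes of the lists that passed the test were named after their values were seen. The statistics were tested on simulated data. Promoter windows came from RefSeq, GRCm38.p6.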

Additional observations from a re-analysis of the deposited data

Results flagged for a closer look

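In 4 of 44 values checked, 1 of the 4 WT libraries stood far from the other 3. Chance would give about 2.2 if the checks were independent, but several use counts of the same genes. The log2 ratio of Bgn to Dcn was 2.75 in WT-4, against 2.97 to 2.99 in the others. The summed normalised count of the smooth muscle markers was 1075154 in WT-3, against 915526 to 940097 in the others. Kera was at 3.13 normalised counts in WT-4 and Podnl1 at 8.98 in WT-2, and both were at 0 in the other WT libraries. Where all other values are 0, any count meets the rule, so these flags reflect sparse counts.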

How the results depend on the processing

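Of the 12 alternatives that kept every library, Lum passed the adjusted p in 11, Ogn in 10 and Bgn in 6. Lum missed it only in the test against a 2-fold change, which none of the 9 genes passed. With any 1 WT library left out, Lum and Ogn passed and Bgn did not. The count of members past the test was 0 in the test against a 2-fold change and 1 when libraries were scaled to the fibroblast markers. That count was 2 or 3 when a WT library was left out. Passes are not counted for the fits without KO-1 or KO-2, which hold 1 KO library. Over all genes, 1775 passed the adjusted p and 962 also a 2-fold change. These counts were 996 and 633 with edgeR, 931 genes passing without its filter on low counts, and 114 for both in the test against a 2-fold change. They ran from 1113 to 2439 and from 636 to 1284 when a library was left out. No label says that WT and KO replicates of the same number were paired. Same-numbered libraries correlated at -0.088 and 0.019 in their deviations from the group means. With 2 KO libraries the deviations of KO-1 mirror those of KO-2, so these values cannot decide on pairing. With the replicate block 628 and 561 genes passed, Lum and Ogn among them and Bgn not (adjusted p = 0.15). The log2 fold change of Prelp turned to -0.014 with the exon length trend taken out and to -0.16 with the fibroblast markers, and ran from -0.067 to 0.16 when a library was left out; the cause was not tested. When a library was left out, list medians ran from -0.32 to 0.30 for the other SLRP genes, -0.15 to -0.021 for chondroitin and dermatan sulfate synthesis, -0.014 to 0.17 for keratan sulfate and tyrosine sulfation, -0.079 to 0.20 for TGF-β ligands, 0.27 to 0.38 for receptors, -0.26 to 0.27 for proteases and -0.44 to -0.23 for other proteoglycans.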
